A study of Saccharomyces cerevisiae with 6 samples.

Results

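Long-range contacts within one chromosome arm were described in 2 Hi-C maps of budding yeast. A member was a pair of 10 kb bins on the same arm, 100 to 500 kb apart, on any nuclear chromosome except III and XII, with each arm ending at its centromere. The rule gave 16698 pairs on 25 arms, which is 2.26% of the 738720 pairs of nuclear bins. Of the 28 arms of these 14 chromosomes, the right arms of I and IX and the left arm of VIII were too short to hold a member. After bins with few contacts to other chromosomes were left out, 13878 pairs on 24 arms remained, and the right arm of VI kept none of its 6 pairs.

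Hi-C cross-links chromatin, cuts it with a restriction enzyme, here DpnII, and joins fragment ends that lie close together, so that read pairs count contacts. Both maps came from cells labelled yMD291, a MATa strain of the W303 background grown without methionine. Besides ade2-1 and can1-100, its genotype lists his3-11,15 together with a mutant allele of leu2 and trp1-1, then ura3-1 beside tor1-1, and fpr::NAT as well as bar1. Chromosome XV also carried engineered sequence, namely Chr15::497047_LacO and Chr15::834487_TetO for the arrays, with HIS3::REV1pr-tetR-mCherry-REV1pr-LacI-GFP and ADE2::REV1pr-LacI-REV1pr-tetR for the proteins that bind them. No second condition was analysed here, so the comparisons are between places on the chromosomes, each map gives its own value, and SD is over the 2 maps.

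In yeast the centromeres are held together near the spindle pole body and the chromosome ends lie at the nuclear envelope, an arrangement known as the Rabl configuration. An arm then runs as a flexible chain from a tethered centromere, and 2 loci on it meet less often the farther apart they lie along the DNA. Distance from the centromere and arm length both set where a locus can reach.

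Distances along an arm were counted from the centromere. The sequence shown lies upstream of REV1, a gene for a translesion DNA polymerase, at chrXV:981578-981777 on the plus strand of the R64 reference of RefSeq. It is shown because the highest same-arm pairs held the REV1 bin and because the labelled insertions at HIS3 and ADE2 carry a REV1 promoter, whose exact bases were not at hand. Its capitals mark GATC, the site that DpnII cuts, which occurs 1 time in these 200 bases.
upstream of REV1: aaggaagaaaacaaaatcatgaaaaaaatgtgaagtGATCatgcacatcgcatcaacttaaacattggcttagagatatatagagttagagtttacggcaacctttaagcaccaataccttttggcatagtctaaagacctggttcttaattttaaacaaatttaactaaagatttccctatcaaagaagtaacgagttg

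The maps held 3751691 and 3511728 nuclear contacts, of which 84447 and 78516 fell on the kept same-arm pairs. A pair had a median of 9 contacts over both maps together, with quartiles of 5 and 16 and a highest value of 259. At 400 to 500 kb, 16.8% and 18.1% of the pairs had no contact in replicate 1 and in replicate 2, so that single pairs were known only to within a few contacts and the results rest on means over many pairs. Over the 13878 pairs, observed over expected values (O/E, the signal divided by the mean of all kept pairs within chromosomes at the same separation) had a Pearson r of 0.484 between the maps, given as a description.

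Signal on one arm fell steadily with separation. It is given relative to the mean between chromosomes, which is 1. Same-arm pairs averaged 6.93 ± 0.03 at 100 to 140 kb, 4.24 ± 0.06 at 150 to 190 kb, 2.86 ± 0.01 at 200 to 290 kb, 1.93 ± 0.02 at 300 to 390 kb and 1.56 ± 0.01 at 400 to 500 kb (SD, n = 2 maps). The nearest class drew on 24 arms and the most distant on 11. Averaged over all its pairs, even the most distant class lay above the mean level between chromosomes in both maps. Within it, arms of at least 600 kb had 1.70 ± 0.01 (1209 pairs) and arms of 400 to 600 kb 1.01 ± 0.01 (310 pairs). Its pairs with a bin within 50 kb of the centromere had 0.572 ± 0.023, below that mean level. Same-arm signal was also set against pairs between chromosomes whose bins lay at the same distances from their centromeres. That ratio was 6.17 ± 0.01 at 100 to 140 kb and 1.98 ± 0.02 at 400 to 500 kb. It covers the 3062 and 1503 pairs that had such a level. Just inside the limits of the rule, the signal was 8.78 at 100 kb and 1.28 at 500 kb, and just outside it was 10.4 at 90 kb and 1.37 at 510 kb.

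**Figure D1:**
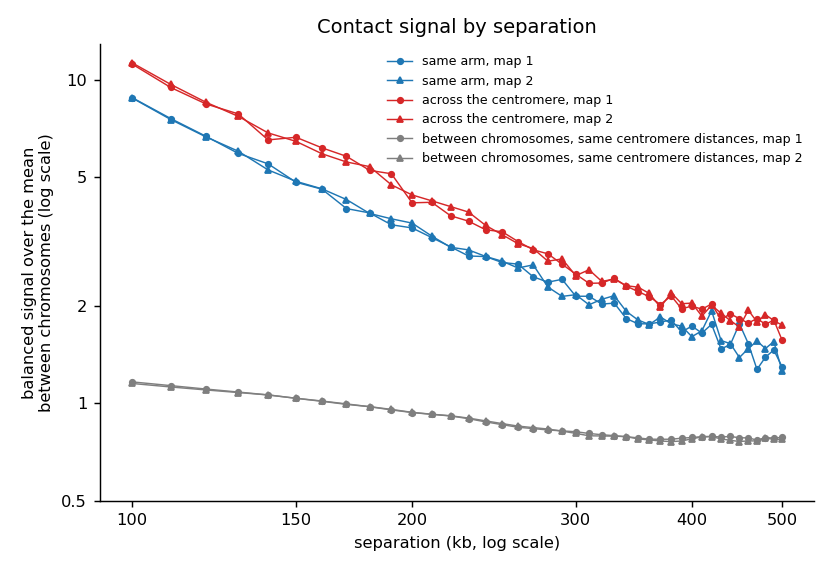
Mean balanced signal over the mean between chromosomes (log scale) against separation in kb (log scale) for same-arm pairs, for pairs across the centromere of the same 14 chromosomes, and for pairs between chromosomes at the same centromere distances as the same-arm pairs. Circles are map 1 and triangles map 2. Same-arm signal was 8.78 at 100 kb and 1.28 at 500 kb, below the pairs across the centromere at both ends (11.2 and 1.66).

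Same-arm pairs had less signal than pairs of equal separation that reach across the centromere of the same chromosome. The ratio of same-arm to cross-arm signal, averaged over 14 chromosomes, was 0.766 ± 0.001. It was below 1 in both maps on 12 chromosomes and above 1 in both on IV and XIV, which carry the longest arm and the fourth by length. X had the lowest ratio, 0.541 ± 0.029, with a same-arm signal of 2.70 ± 0.04 and a cross-arm signal of 5.0 ± 0.2. IV had the highest, 1.04 ± 0.01, with 3.43 ± 0.003 on one arm and 3.31 ± 0.04 across the centromere. The others lay between these, at 0.603 ± 0.018 on XVI, 0.617 ± 0.065 on VI, 0.634 ± 0.010 on V, 0.644 ± 0.003 on XI, 0.706 ± 0.003 on II, 0.754 ± 0.008 on VII, 0.778 ± 0.052 on I, 0.808 ± 0.038 on IX, 0.819 ± 0.026 on VIII, 0.872 ± 0.011 on XV, 0.895 ± 0.003 on XIII and 1.02 ± 0.02 on XIV. Some neighbours in this order, such as IX and VIII or VI and V, differed by less than the SD over the maps, while others, such as XI and II or XIII and XIV, differed by more.

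The lower same-arm signal was seen at each distance from the centromere that was compared, up to 200 kb. Pairs with the nearer bin farther out were not compared in this way. With the bin nearer to the centromere within 50 kb of it, same-arm pairs averaged 1.36 ± 0.02 and cross-arm pairs 2.20 ± 0.003, a ratio of 0.618 ± 0.009. At 50 to 100 kb the values were 1.99 ± 0.002 on one arm and 3.85 ± 0.02 across, a ratio of 0.517 ± 0.003. At 100 to 200 kb they were 2.07 ± 0.01 and 3.46 ± 0.06, a ratio of 0.598 ± 0.012. A cross-arm pair of a given separation has its farther bin closer to the centromere than a same-arm pair does, and what part this takes was not tested.

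Signal on one arm was lowest beside the centromere and climbed outwards. Here a relative signal is used, the signal of a pair over the mean of all kept same-arm pairs at its separation, and pairs are sorted by the distance of the inner bin, the one nearer to the centromere. The relative signal was 0.453 ± 0.006 for 2035 pairs with the inner bin within 50 kb of the centromere, 0.719 ± 0.0003 for 2396 pairs at 50 to 100 kb, 0.999 ± 0.004 for 3887 pairs at 100 to 200 kb and 1.32 ± 0.001 for 5560 pairs farther out. Pairs over 200 kb out thus had 2.92 ± 0.03 times the relative signal of pairs within 50 kb. This gap widened with separation, since pairs within 50 kb stood at 0.511 ± 0.005 at 100 to 200 kb of separation and at 0.370 ± 0.012 at 400 to 500 kb, and pairs over 200 kb out at 1.23 ± 0.003 and 1.54 ± 0.02. The value of 1.54 includes pairs of the REV1 bin, which reached an O/E of 19.5 with the ADE2 bin. Without the REV1 bin the ratio over all separations was 2.87, and no value by separation is given.

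Since only long arms hold pairs far from the centromere, the comparison was repeated within arms at 100 to 200 kb of separation. On all 15 arms with at least 10 pairs of each kind, far pairs were higher in both maps. The ratio of far to near relative signal had a median of 2.80 and ran between 1.74 on the left arm of X and 3.44 on the right arm of XV. On the left arm of X, far pairs stood at 0.931 and 0.941 in the 2 maps and near pairs at 0.570 and 0.510. On the right arm of XV, far pairs stood at 1.23 and 1.25 and near pairs at 0.400 and 0.329. The means of the 2 maps thus did not overlap on either arm, and the spread over single pairs is not given.

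**Figure D2:**
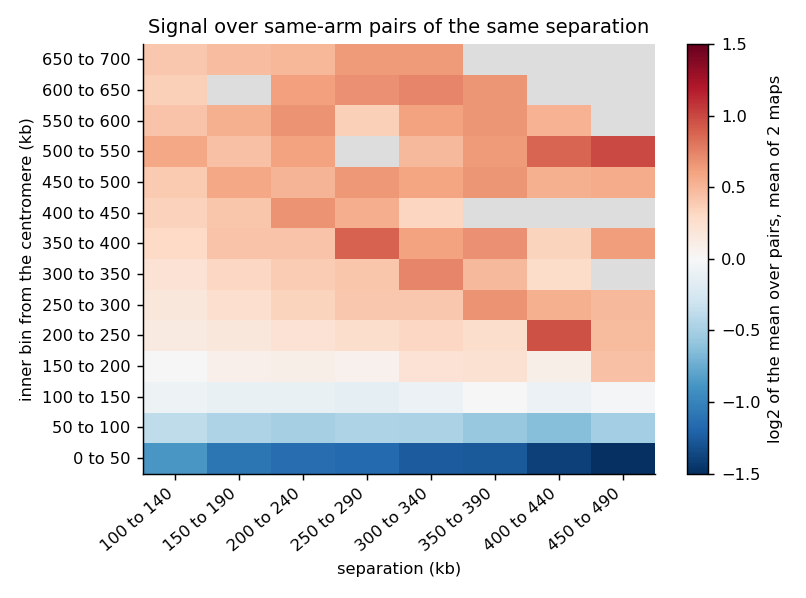
Relative signal (log2 of the mean over pairs, mean of the 2 maps) by separation in kb and by the distance of the inner bin from the centromere in kb, over all arms. Cells with under 20 pairs are grey. The lowest row, within 50 kb of the centromere, is the lowest at every separation. The red cells at 200 to 250 kb with 400 to 440 kb of separation and at 350 to 400 kb with 250 to 290 kb hold the pairs of the REV1 bin with ADE2 and HIS3. Those at 500 to 550 kb with separations from 300 kb lie on the right arm of IV.

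Distance to the chromosome end moved the signal less. Pairs whose outer bin lay within 30 kb of the end had a relative signal of 1.19 ± 0.01, those at 30 to 100 kb one of 1.08 ± 0.01, and those farther from the end one of 0.950 ± 0.005. Among pairs with the inner bin over 200 kb from the centromere, the 3 values drew together to 1.40 ± 0.02, 1.31 ± 0.01 and 1.32 ± 0.01. Nearer to the centromere, pairs within 30 kb of the end stayed above those over 100 kb from it in both maps. The 3 values were 0.695 ± 0.050, 0.491 ± 0.015 and 0.430 ± 0.001 within 50 kb. At 50 to 100 kb they were 0.851 ± 0.110, 0.791 ± 0.028 and 0.688 ± 0.001. There the first 2 changed order between the maps, at 0.929 and 0.771 in replicate 1 and 0.773 and 0.810 in replicate 2. At 100 to 200 kb the 3 values were 1.15 ± 0.04, 1.06 ± 0.01 and 0.965 ± 0.012. Several features of the bins were measured beside the position. Kept bins within 50 kb of a centromere held 30.98 GATC sites and 38.7% GC on average, against 29.98 sites and 38.2% GC over 200 kb out. Their share of contacts with other chromosomes was 36.8%, against 29.4% over 200 kb out. With bins balanced on contacts between chromosomes alone, pairs within 50 kb stood at 0.410 ± 0.001 and pairs over 200 kb out at 1.45 ± 0.003. Of bins within 50 kb, 74.6% were kept, against 91.1% over 200 kb out.

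The 4 longest arms, the right arms of IV (1082.1 kb), XV (764.7 kb) and XIII (656.3 kb) and the left arm of XIV, the shortest of them, show the profile along an arm at 100 to 200 kb of separation, here without the REV1 bin. With the inner bin within 50 kb of the centromere, the relative signal was 0.401 ± 0.012 on IV, 0.365 ± 0.050 on XV, 0.61 ± 0.04 on XIII and 0.400 ± 0.011 on XIV. At 250 to 300 kb the 4 arms were alike, at 1.17 ± 0.08 on IV, 1.15 ± 0.01 on XV, 1.14 ± 0.02 on XIII and 1.22 ± 0.14 on XIV. The right arm of XV stood apart between these places. It had 0.436 ± 0.008 at 50 to 100 kb and 0.557 ± 0.005 at 100 to 150 kb, where IV had 0.683 ± 0.005 and 0.922 ± 0.017, XIII 0.692 ± 0.055 and 0.911 ± 0.104 and XIV 0.720 ± 0.014 and 0.949 ± 0.006. IV, the longest, reached 1.45 ± 0.02 at 550 to 600 kb and then came down to 1.18 ± 0.05 at 900 to 950 kb, near its end.

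**Figure D3:**
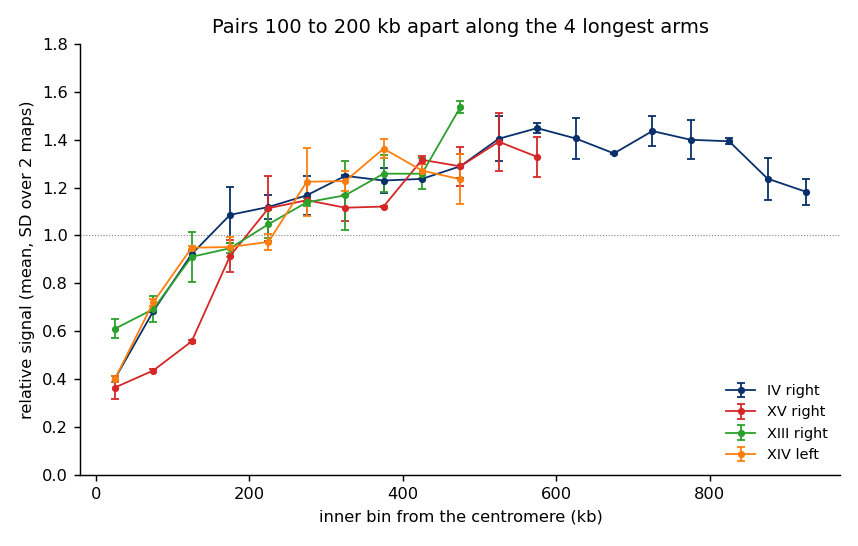
Relative signal (mean and SD over the 2 maps) of same-arm pairs 100 to 200 kb apart in steps of 50 kb of inner bin distance from the centromere, for the 4 longest arms, without pairs of the REV1 bin. All 4 climb from the centromere outwards, the right arm of XV later than the others, with 0.557 at 100 to 150 kb.

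Arm length went with a higher signal and a slower decay when all pairs of an arm were averaged. At 100 to 120 kb, the separations that every one of the 24 arms offers, the signal was 8.15 ± 0.01 on the 4 arms of at least 600 kb, 7.50 ± 0.06 on the 9 arms of 400 to 600 kb, 6.84 ± 0.004 on the 7 arms of 200 to 400 kb and 6.81 ± 0.60 on the 4 arms under 200 kb. The ratio of the longest to the shortest class was 1.20, with 1.28 in replicate 1 and 1.13 in replicate 2. The shortest class rests on 30 kept pairs, and its arms spread more widely than the classes differ.

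Among the longest arms the signal at 100 to 120 kb was 8.93 ± 0.14 on the right arm of IV, 8.29 ± 0.48 on the right arm of XIII, 7.85 ± 0.21 on the left arm of XIV and 7.53 ± 0.16 on the right arm of XV. Among arms of 400 to 600 kb it was 8.17 ± 0.40 on VII right, 7.95 ± 0.19 on II right, 7.82 ± 0.29 on XVI left, 7.71 ± 0.03 on VIII right, 7.37 ± 0.04 on X left, 7.34 ± 0.47 on VII left, 7.19 ± 0.28 on IV left, 7.17 ± 0.06 on XI left and 6.75 ± 0.44 on V right. The arms of IV thus had 8.93 on the right and 7.19 on the left, although both share a centromere. Among arms of 200 to 400 kb it was 7.39 ± 0.40 on XIII left, 7.27 ± 0.16 on XV left, 7.02 ± 0.22 on XI right, 6.97 ± 0.26 on IX left, 6.76 ± 0.13 on XVI right, 6.69 ± 0.17 on X right and 5.80 ± 0.20 on II left. Among the shortest it was 9.35 ± 0.08 on I left, 7.12 ± 0.52 on VI left, 6.37 ± 0.82 on V left and 4.404 ± 1.17 on XIV right, from 9, 4, 9 and 6 pairs at these separations. The left arm of I was therefore above every other arm, while many neighbours in the order of the longer arms lay within 1 SD of each other. Across 24 arms, Spearman's rho with arm length was 0.626 (Pearson's r 0.547), and across the 20 arms of at least 200 kb rho was 0.817 (r 0.815, and 0.802 without the 2 arms farthest from the median length), descriptions over arms that share libraries and, in pairs, a centromere.

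Decay was measured as the slope of log10 mean signal on log10 separation, so that a slope nearer to 0 is a slower fall. Over 100 to 200 kb it averaged -1.30 ± 0.04 on the 4 longest arms, -1.40 ± 0.03 on the 9 arms of 400 to 600 kb and -1.75 ± 0.06 on the 7 arms of 200 to 400 kb. The difference between the longest arms and those of 200 to 400 kb was 0.455 ± 0.106. It depended on the right arm of XI. Its slope was -2.33 and -3.05 in the 2 maps, against -1.89 ± 0.17 on II left, -1.66 ± 0.09 on XIII left, -1.66 ± 0.34 on XV left, -1.56 ± 0.12 on IX left, -1.55 ± 0.21 on X right and -1.27 ± 0.07 on XVI right. Without XI right the difference was 0.299, and with only pairs whose bins lay at least 50 kb from the centromere and 30 kb from the end it was 0.203.

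**Figure D4:**
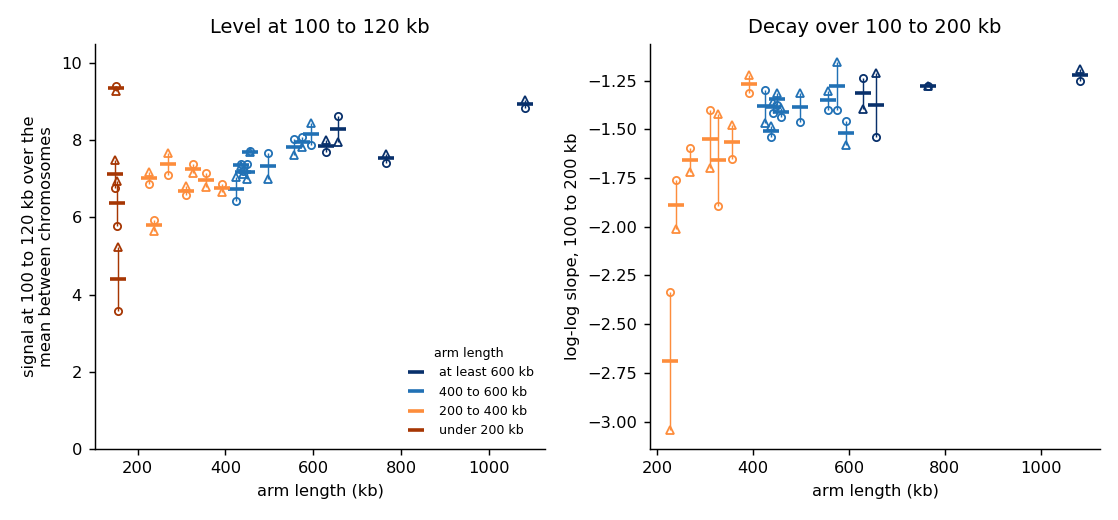
Left, signal at 100 to 120 kb over the mean between chromosomes, and right, log-log slope over 100 to 200 kb, both against arm length in kb, for each arm. Circles are map 1, triangles map 2, bars their mean, and vertical lines join the 2 maps. The arms of at least 600 kb lay at 7.53 to 8.93, and the slopes of the 20 arms with a value ran between -2.69 on XI right and -1.22 on IV right.

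Among the longer arms the slopes over 100 to 200 kb lay close together. They were -1.22 ± 0.04 on IV right, -1.28 ± 0.0001 on XV right, -1.32 ± 0.11 on XIV left and -1.38 ± 0.23 on XIII right. On arms of 400 to 600 kb they were -1.28 ± 0.17 on II right, -1.34 ± 0.04 on IV left, -1.35 ± 0.07 on XVI left, -1.38 ± 0.12 on V right, -1.39 ± 0.10 on VII left, -1.39 ± 0.04 on XI left, -1.41 ± 0.03 on VIII right, -1.51 ± 0.04 on X left and -1.52 ± 0.09 on VII right. Most of these neighbours differed by less than the SD over the maps.

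Over larger separations the arms parted further. Over 100 to 300 kb the mean slope was -1.18 ± 0.01 on the 4 longest arms, -1.39 ± 0.02 on 9 arms of 400 to 600 kb and -1.77 ± 0.19 on 3 arms of 200 to 400 kb, with a rho of 0.909 over 16 arms (r 0.763). Over 100 to 500 kb, which 8 arms offer, it was -1.02 ± 0.02 on XV right, -1.06 ± 0.001 on IV right, -1.22 ± 0.04 on XIII right, -1.44 ± 0.04 on XIV left, -1.53 ± 0.09 on VII left, -1.54 ± 0.17 on II right, -1.54 ± 0.02 on VII right and -1.59 ± 0.08 on XVI left. The right arms of XV and IV, the 2 longest, were thus the slowest to decay. Without the REV1 bin, XV right had -1.13 ± 0.03.

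Within 200 kb of the centromere, the order of the classes turned round when the distance from it was matched and separations of 100 to 200 kb were pooled. Over 100 to 200 kb of separation and with the inner bin within 50 kb of the centromere, the relative signal was 0.443 ± 0.026 on arms of at least 600 kb, 0.469 ± 0.001 on arms of 400 to 600 kb and 0.568 ± 0.005 on arms of 200 to 400 kb. At 50 to 100 kb it was 0.626 ± 0.013, 0.740 ± 0.017 and 0.836 ± 0.014 in the same order of classes, and at 100 to 200 kb it was 0.898 ± 0.005, 0.990 ± 0.011 and 1.04 ± 0.03. The ratio of the longest class to that of 200 to 400 kb, averaged over these 3 distances, was 0.797 ± 0.013. With the inner bin over 200 kb out, a range that reaches farther on longer arms, the order was the other way, at 1.26 ± 0.001 on arms of at least 600 kb, 1.19 ± 0.004 on arms of 400 to 600 kb and 1.17 ± 0.02, over 45 pairs, on arms of 200 to 400 kb. Leaving out pairs whose outer bin lay within 100 kb of the chromosome end, at the 3 distances within 200 kb the longest arms still had 0.443, 0.626 and 0.898, against 0.536, 0.797 and 1.02 on arms of 200 to 400 kb. Without chromosome XV the ratio was 0.861. Within 50 kb of the centromere the longest arms were not alike. They had 0.365 ± 0.050 on XV right, 0.401 ± 0.012 on IV right, 0.400 ± 0.011 on XIV left and 0.61 ± 0.04 on XIII right. At 100 to 140 kb of separation the longest class there stood above arms of 400 to 600 kb, at 0.507 ± 0.001 against 0.479 ± 0.005. It stayed below the 0.568 ± 0.004 of arms of 200 to 400 kb.

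When each pair was divided by the mean of its class of separation and inner bin distance, the left arm of I had the highest value of the 24 arms, 2.11 ± 0.10, and the right arm of V the lowest, 0.910 ± 0.003. IV right, the highest of the long arms before this division, stood at 1.00 ± 0.01. Spearman's rho with arm length was -0.773 over 24 arms and -0.656 over the 20 arms of at least 200 kb. The longest arms averaged their pairs farther out, with a median inner bin distance of 395.2 kb on IV right and 218.4 kb on XV right, against 49.8 kb on XI right and 71.6 kb on XV left.

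The level between chromosomes at the same centromere distances gave a second view of the classes. Signal over that level at 100 to 140 kb was 6.06 ± 0.005 on arms of at least 600 kb, 6.24 ± 0.005 on arms of 400 to 600 kb and 6.15 ± 0.09 on arms of 200 to 400 kb. Without this division the classes had 7.43 ± 0.03, 6.80 ± 0.03 and 6.18 ± 0.08. The first of these is over all 1160 pairs of the longest arms, of which 1024 had a matched level. In the shorter classes every pair had one. Among pairs with a matched level, the advantage of the longest arms at this separation was not seen over that level. At 200 to 290 kb the ratio to the matched level was 3.03 ± 0.03 on the longest arms, 3.27 ± 0.02 on arms of 400 to 600 kb and 3.52 ± 0.12 on arms of 200 to 400 kb. At 300 to 390 kb it was 2.28 ± 0.03, 2.63 ± 0.09 and, over 29 pairs, 3.14 ± 0.29.

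Single pairs were sorted by O/E of at least 2 in both maps with at least 10 contacts in all, called high, or of at most 0.5 in both maps with at least 10 contacts expected, called low. Of the 13878 same-arm pairs, 100 were high (0.721%), where 2.3% of all 25044 kept pairs within chromosomes at these separations were. Same-arm pairs thus lay below that background for high pairs. Of the 100, 42 lay on XV right, which kept 1694 pairs, and 36 on IV right, which kept 2491. Then came 6 on XIV left (of 1189), 5 on XIII right (of 1349) and 11 on the other 20 arms together. The share was 1.32% of 6723 pairs on arms of at least 600 kb and 0.169% of 5925 on arms of 400 to 600 kb. It also differed by separation, with 0.125% of 3198 pairs at 100 to 140 kb and 1.97% of 1519 at 400 to 500 kb. The low rule took 624 same-arm pairs (4.50%), where 3.69% of all kept pairs were low. Of the pairs with the inner bin within 50 kb of the centromere, 417 of 2035 were low, and of those over 200 kb out, 13 of 5560. Among pairs that had at least 10 contacts expected, these shares were 41.3% and 0.403%. Both counts depended on the processing. High pairs numbered 200 and 210 in single maps, 267 when balanced on contacts between chromosomes only, 182 without balancing, 162 with the expectation from same-arm pairs and 58 without chromosome XV, and low pairs 316 and 353 in single maps and 940 when balanced on contacts between chromosomes only. In a single map the limit of 10 contacts, observed or expected, applied to that map alone, so those counts stand at an unlike threshold.

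The highest same-arm pairs all lay on the right arm of XV, and 9 of the 10 highest held the bin of REV1, which spans 981828 to 984785 on the plus strand and lies in the bin chrXV:980001-990000. With the bin of ADE2, an enzyme of adenine synthesis at 564476 to 566191, 420 kb away, it had 75 and 67 contacts where 7.29 were expected in both maps together, an O/E of 19.5 (95% exact Poisson interval 16.4 to 22.9). With the bin of HIS3, an enzyme of histidine synthesis at 721946 to 722608, 260 kb away, it had 137 and 122 contacts where 15.5 were expected, an O/E of 16.7 (14.8 to 18.9). These intervals cover counting error only. Around both bins the signal fell off over the neighbouring bins, with O/E 13.1 and 8.43 in the bins next to ADE2 and 10.9 and 5.17 in those next to HIS3.

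The REV1 bin was above 2 in both maps with 27 of its 39 same-arm partners, and its median O/E was 2.98, with a lowest value of 1.03. The bins beside it did not reach this level. The bin on its centromere side had an O/E of 1.37 with the ADE2 bin (2 and 2 contacts) and 2.92 with the HIS3 bin (10 and 10 contacts), and the bin on its other side had 0.528 (1 and 2 contacts) and 0.760 (2 and 8 contacts). Their median O/E over the arm was 1.44 and 1.12, with 4 and 1 high pairs of 39 each, where 0.721% of all same-arm pairs were high. The second bin on the centromere side had a median of 1.44 and 5 high pairs of 40. The labels place constructs with a REV1 promoter at HIS3 and at ADE2, and the part of those copies in these values was not tested. Without the REV1 bin, 73 of 13839 same-arm pairs were high, none above an O/E of 3.85.

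**Figure D5:**
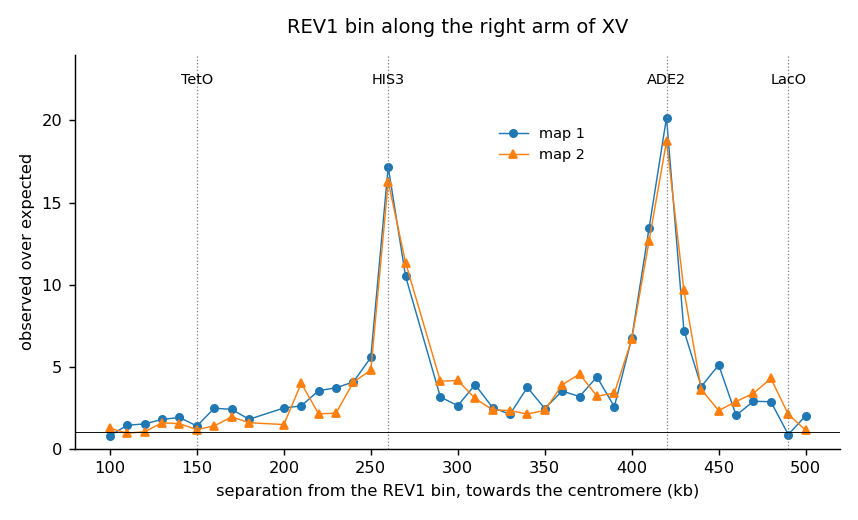
Observed over expected of the REV1 bin with each kept bin of the right arm of XV against separation in kb, counted towards the centromere, in map 1 (circles) and map 2 (triangles). Dotted lines mark the bins of TetO, HIS3, ADE2 and LacO, and the horizontal line is 1. Peaks of 16.7 and 19.5 stand at HIS3 and ADE2, and no peak stands at TetO (1.28) or LacO (1.49).

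The other pairs of the engineered loci had O/E values of 0.98 to 1.82, with intervals that all held 1. The highest was ADE2 with TetO, 270 kb apart, with 9 and 5 contacts where 7.69 were expected, an O/E of 1.82 (0.996 to 3.06). The LacO and TetO bins, 340 kb apart, had 2 and 4 contacts where 6.203 were expected, an O/E of 0.98 (0.355 to 2.11). The ADE2 and HIS3 bins, 160 kb apart, had 11 and 13 contacts and an O/E of 1.16 (0.742 to 1.72). The TetO bin had an O/E of 1.28 with the REV1 bin (14 and 11 contacts) and of 1.35 with the HIS3 bin (25 and 18 contacts).

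Beyond the REV1 bin, the high pairs rested on few contacts each. The highest joined the bin of RPB2, a subunit of RNA polymerase II, and PDR5, a drug efflux pump, to that of RPA190, the largest subunit of RNA polymerase I, on XV right. It had 10 and 5 contacts over 350 kb and an O/E of 3.85 (2.17 to 6.396). On IV right, the bin of YAP6 and HSP78 and that of TLG1 and SDC1, 420 kb apart, had 10 and 9 contacts, an O/E of 3.24 (1.95 to 5.06). Of these 73 pairs, 62 lay on arms of at least 600 kb. They made up 0.928% of the 6684 kept pairs there without the REV1 bin, against 0.527% of 13839 on all arms. At the other end, 9 low pairs were tied at no contact in either map, with 10.2 to 14.7 contacts expected. Of these, 4 lay on XV right and 1 each on the right arms of IV and XIII and the left arms of VII, IX and XIV. The inner bin lay within 50 kb of the centromere in 8 of them and 96.9 kb from it in the pair on XIII. In 3 of those on XV the inner bin was that of DNL4, the DNA ligase of end joining, 8.4 kb from the centromere of XV, and its pair with the bin of RPO31, a subunit of RNA polymerase III, 210 kb away, had 14.7 contacts expected (upper bound of O/E 0.251). On IV right the bin of KCS1 and that of YCF1, 240 kb apart, had 11.7 contacts expected.

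Cells grown without methionine turn on genes of methionine and sulfur metabolism, and their bins were taken as a list. The 33 genes gave 12 same-arm pairs at these separations, of which 11 were kept. Their median O/E was 0.862, against 0.880 over all same-arm pairs, and in both maps 3 of them (27.3%) exceeded 1 while 6 (54.5%) fell short of it, where 21.4% and 43.3% of all same-arm pairs did. None was high and 1 was low, where 0.721% and 4.50% of all same-arm pairs were. The highest was MET32, a DNA-binding cofactor of Met4, with SAM2, an S-adenosylmethionine synthetase, 490 kb apart on IV right, at 4 and 4 contacts and an O/E of 2.44 (1.05 to 4.78). STR3, a cystathionine beta-lyase, with MET13, a methylenetetrahydrofolate reductase, had 28 and 20 contacts and an O/E of 1.53 (1.13 to 2.03). MET8, of siroheme synthesis, with SUL1, a sulfate permease, had 17 and 11 contacts and an O/E of 1.27 (0.849 to 1.85). The lowest was MET3, the ATP sulfurylase, with MET5, a sulfite reductase subunit, on X right, at 1 and 1 contacts and an O/E of 0.165 (0.020 to 0.596). MUP1, a methionine permease, with CYS4, a cystathionine beta-synthase, had 0.493 (0.181 to 1.07), and MET3 with STR2, a cystathionine gamma-synthase, had 0.513 (0.186 to 1.10). The inner bin of both MET3 pairs lay 18.6 kb from the centromere, that of the 3 highest pairs at least 222 kb from it.

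The bins of YBP2, a gene of the oxidative stress response, and TRP2, an anthranilate synthase subunit, served the study as viewpoints. The YBP2 bin on VII left had 29 kept same-arm pairs with a median O/E of 0.728, of which 2 (6.90%) were above 1 and 17 (58.6%) below 1 in both maps, where 21.4% and 43.3% of all same-arm pairs were. Its highest pair, with the bin of ADH4, had 4 and 3 contacts and an O/E of 1.62 (0.653 to 3.35), and its lowest, with the bin of MCM6, had 2 and 0 contacts and an O/E of 0.298 (0.036 to 1.08). The TRP2 bin on V right had 21 kept pairs with a median of 0.900, 4 (19.0%) above and 10 (47.6%) below 1 in both maps. Its highest pair lay toward the chromosome end, 230 kb away, with 11 and 11 contacts and an O/E of 1.47 (0.920 to 2.22). Its lowest, with the bin of BIM1 and HEM14 near the centromere, had 1 and 3 contacts and an O/E of 0.148 (0.040 to 0.376), and the next, with the bins of SEC3 and of SPC25, had 0.263 and 0.414. None of the pairs of either bin was high, and 3 pairs of the TRP2 bin (14.3%) and none of the YBP2 bin were low, where 0.721% of all same-arm pairs were high and 4.50% low.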

How the data were processed

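Hi-C signal of the 2 maps labelled -met was used, and the other 4 samples of the labels were not analysed here. Per the labels, the authors used HiC-Pro with the sacCer3 build. In the deposited files, signal stands for how often 10 kb bins met after ICE, an iterative correction run on each map alone, with no scaling of one map to the other. The deposited table of bins gave start and end positions, and its chromosome lengths equal those of the R64 reference, which gave genes and sequences.

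The correction factor of each bin was estimated by iteration, starting at its low values with other chromosomes, and after undoing it 100% of the values were whole contacts to within 0.01. Signal was divided by the mean between chromosomes in each map. A bin entered if, in each map, a share of 0.5 or more of its partners on other chromosomes was filled, which held for 1080 of 1216 nuclear bins. Slopes used separations with at least 3 pairs. The matched level between chromosomes was a mean over 3 by 3 bins of centromere distance with at least 20 pairs. The functions were tested on simulated data. Python 3.11.15, numpy 2.4.6, pandas 2.3.3 and scipy 1.17.1 were used.

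No test between groups was possible with 1 condition, and bin pairs are not replicates. Per the methods the replicates are biological, and n is 2 maps throughout. Named were every arm, the 10 highest and 5 lowest pairs among those called (9 tied for lowest and are counted together), the LacO and TetO pair, the 3 highest and 3 lowest pairs of the methionine list and of the YBP2 and TRP2 bins, of which some are given by count. Other pairs of engineered loci, the highest pairs without the REV1 bin and the ratios by inner bin distance were chosen after seeing the data. The members and lists were chosen with earlier results of these data known. Alternatives were other scalings and filters, a single map, subsets of pairs, medians and other thresholds. Some sequences are not reported here.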

Additional observations from a re-analysis of the deposited data

How the results depend on the processing

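No result changed direction under any alternative run. The same-arm over cross-arm ratio (0.766) was 0.805 with no filter on bins, 0.816 when balanced on contacts between chromosomes only, 0.703 without balancing, 0.758 without chromosome XV, 0.660 for interior pairs only, 0.765 as a median over pairs and 0.762 without the REV1 bin. The ratio of long to short arms (1.20) was 1.32 with no filter, 1.54 when balanced between chromosomes only and 1.53 without balancing, and 1.13 to 1.28 in single maps. It had no value for interior pairs, since arms under 200 kb hold none. The difference in slope (0.455) was 0.203 for interior pairs, 0.597 over 100 to 300 kb and 0.299 without the right arm of XI, and 0.380 to 0.530 in single maps. The far over near ratio (2.92) was 3.09 with no filter, 3.54 when balanced between chromosomes only, 2.73 without balancing, 2.77 without chromosome XV, 3.03 as a median and 2.87 without the REV1 bin. The ratio of long to shorter arms at matched centromere distance (0.797) was 0.710 without balancing and 0.861 without chromosome XV. The count of high pairs (100) was 267 when balanced between chromosomes only, 182 without balancing, 58 without chromosome XV, 162 with the expectation from same-arm pairs, 476 at an O/E of at least 1.5, and 200 to 210 in single maps. The count of low pairs (624) was 940 when balanced between chromosomes only and 316 to 353 in single maps. The causes of these shifts were not tested. Leaving out pairs that share a 50-base word moved no result. The settings without the REV1 bin and without the right arm of XI were chosen after seeing the data.

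No paired analysis was possible because there is 1 condition, whose replicate numbers have no partner in another group with values. Depth limited single pairs. Only 1 pair at 400 to 500 kb had 10 contacts expected, so the low rule reached almost none there. The shortest arms rest on 30 pairs, and 2 maps give only a coarse SD.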
